A study of Homo sapiens with 8 samples.

Results

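CHD4 peaks were called at 303 genomic regions in all 3 libraries of cells with DOC1, but in only 1 or 2 of the 3 libraries of cells without it. These regions are a small part of the 18808 regions obtained when overlapping peaks of all 6 CHD4 lists were merged, namely 1.61%, and 30.1% of the 1005 regions that held a peak in all 3 DOC1 libraries. They were chosen by presence of a peak, which means that the peak caller scored the region above its threshold in that library, so that a region without a peak may still be bound. Presence, fold enrichment and read number therefore come from the comparison that chose the regions, and are described here without a test. A further 184 regions of all 3 DOC1 libraries held no lacZ peak, and 518 held a peak in all 3 lacZ libraries as well.

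CHD4 is the ATP-driven motor of NuRD, a complex that slides nucleosomes and, through its histone deacetylases, removes acetyl groups from histones. NuRD is known to sit at many active enhancers and promoters as well as at silenced genes, and is needed in many lineages for cells to differentiate. DOC1, the product of CDK2AP1, is a small accessory subunit of NuRD whose expression is lost in many oral cancers.

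The cells were SCC9, an established squamous carcinoma line derived from tongue. The groups used here were DOC1 (labelled +DOC1) and lacZ (labelled -DOC1), each with 3 chromatin immunoprecipitations against CHD4, numbered 1 to 3, read by sequencing. An IgG library of each group is not analysed here. How DOC1 was supplied, whether the cells of a group stem from 1 clone and whether the numbers stand for separate cultures is not given in the sources used here, so the spread between libraries may be technical. Values of a group's libraries are given in the order of their numbers.

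The lists, in hg19 coordinates, differed in length, and the total number of reads behind each is not used here. The DOC1 lists held 7834, 3448 and 11032 peaks, and the lacZ lists 7027, 2812 and 4723 peaks. The number of reads piled up at each peak's summit was recovered from the deposited fold and p-value. Its median over all peaks of a list was 15, 15 and 34 reads in the DOC1 lists and 38, 27 and 22 reads in the lacZ lists. No gene annotation or genome sequence of hg19 was used here, so the regions are named by position and no sequence is shown.

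The lacZ library missing from these regions was mostly lacZ 2. Its list lacked 261 of the 303 regions (86.1%), while lacZ 3 lacked 160 (52.8%) and lacZ 1 lacked 20 (6.60%). The most frequent arrangement was a peak in lacZ 1 and lacZ 3 with none in lacZ 2, at 129 regions. At 123 regions lacZ 1 was the only lacZ library with a peak. A peak in lacZ 1 and lacZ 2 was seen at 31 regions, in lacZ 3 alone at 9, in lacZ 2 alone at 6, and in lacZ 2 and lacZ 3 at 5. In all, 138 regions held a peak of 1 lacZ library and 165 of 2.

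**Figure D1:**
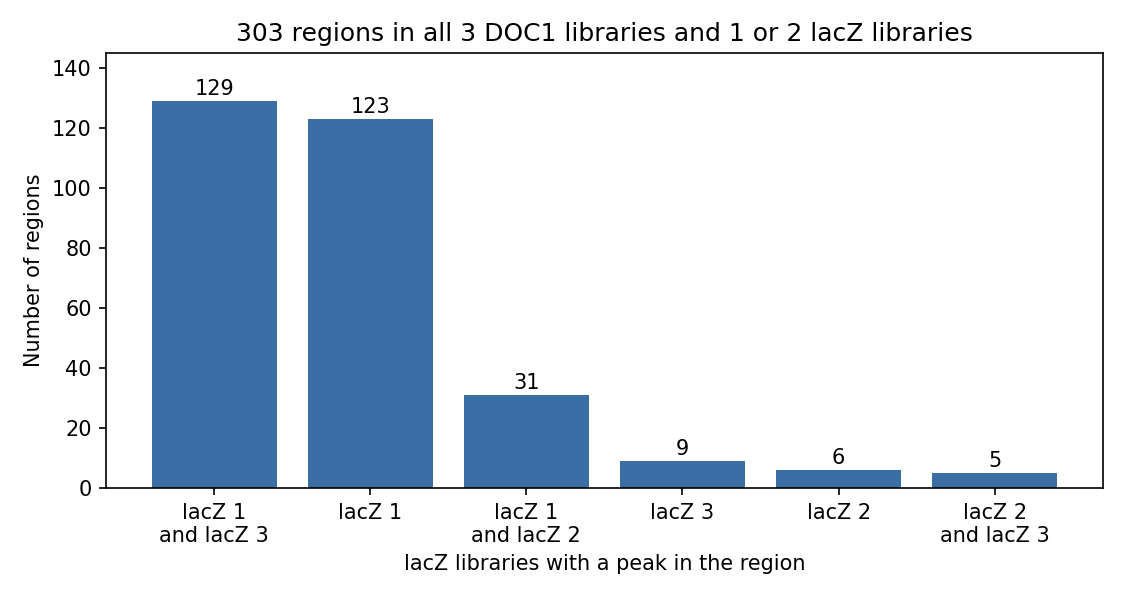
Number of regions (vertical axis) by the lacZ libraries that held a peak there (horizontal axis), for the 303 regions present in all 3 DOC1 libraries and in 1 or 2 lacZ libraries. The bars for lacZ 1 with lacZ 3 (129) and lacZ 1 alone (123) hold most regions, and both lack lacZ 2.

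The order of the lacZ libraries followed the length of their lists. The longest lacZ list, lacZ 1 with 7027 peaks, was missing least often, and the shortest, lacZ 2 with 2812, most often. Over all 15658 regions with a peak of any DOC1 library, lacZ 1 was present at 29.5%, lacZ 3 at 20.2% and lacZ 2 at 13.9%, the same order. When every list was reduced to its 2812 peaks with the smallest p-values, lacZ 1 was missing from 35.8%, lacZ 2 from 56.8% and lacZ 3 from 47.4% of the regions that then met the rule. Those regions numbered 95, and 67 of the 303 were among them. Of the 303, 51 kept a peak of all 3 shortened DOC1 lists but of no lacZ list, 173 kept a peak of 1 or 2 DOC1 lists and 12 of none. The part of list length in the patchiness was not tested further.

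The number of regions rested on DOC1 2 and on which lacZ libraries were counted. Without DOC1 2 the rule was met by 1703 regions, with lacZ 1 missing at 14.0% of them. Without lacZ 1 it was met by 176, and without lacZ 2 by 168. In the first case the rule asks for fewer DOC1 libraries, and in the others for exactly 1 of 2 lacZ libraries. The opposite arrangement, a peak in all 3 lacZ libraries and in 1 or 2 DOC1 libraries, was found at 1135 regions (6.03% of all). There the missing library was DOC1 2 in 96.1% of cases, DOC1 1 in 33.9% and DOC1 3 in 6.61%. In lists of equal length the opposite arrangement was found at 604 regions.

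In the DOC1 lists these regions ranked in the upper part of DOC1 3 and DOC1 1 and in the middle of DOC1 2. Fold enrichment, the reads at a summit over the caller's estimate of local background, belongs to each list, so it is given here with its percentile within that list. In DOC1 1 it ranged from 3.24 to 13.7 with a median of 6.75, at the 72.7th percentile of that list. In DOC1 2 it ranged from 2.39 to 8.85 with a median of 5.21, at the 49.8th percentile. In DOC1 3 it ranged from 2.92 to 15.0 with a median of 6.54, at the 83.3rd percentile. Peaks above the median of their list numbered 207 of 303 in DOC1 1, 151 in DOC1 2 and 240 in DOC1 3. DOC1 2 was the list in which a region ranked lowest of the 3 DOC1 lists at 181 regions (59.7%). Without DOC1 2 the median percentiles were 53.8 in DOC1 1 and 59.8 in DOC1 3, over the 1703 regions named above.

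These values lay between those of the regions that lacZ lacked and those that it fully shared. Regions of all 3 DOC1 libraries with no lacZ peak stood at the 64.2nd, 47.7th and 77.7th percentile of the DOC1 lists. Regions of all 6 libraries stood at the 83.1st, 55.8th and 93.0th. The intermediate order held in each of the 3 DOC1 lists, with differences of a few points in DOC1 2. Between regions with 1 and with 2 lacZ peaks there was no such order, with 72.7 and 72.7 in DOC1 1, 52.4 and 46.6 in DOC1 2 and 84.8 and 81.3 in DOC1 3.

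**Figure D2:**
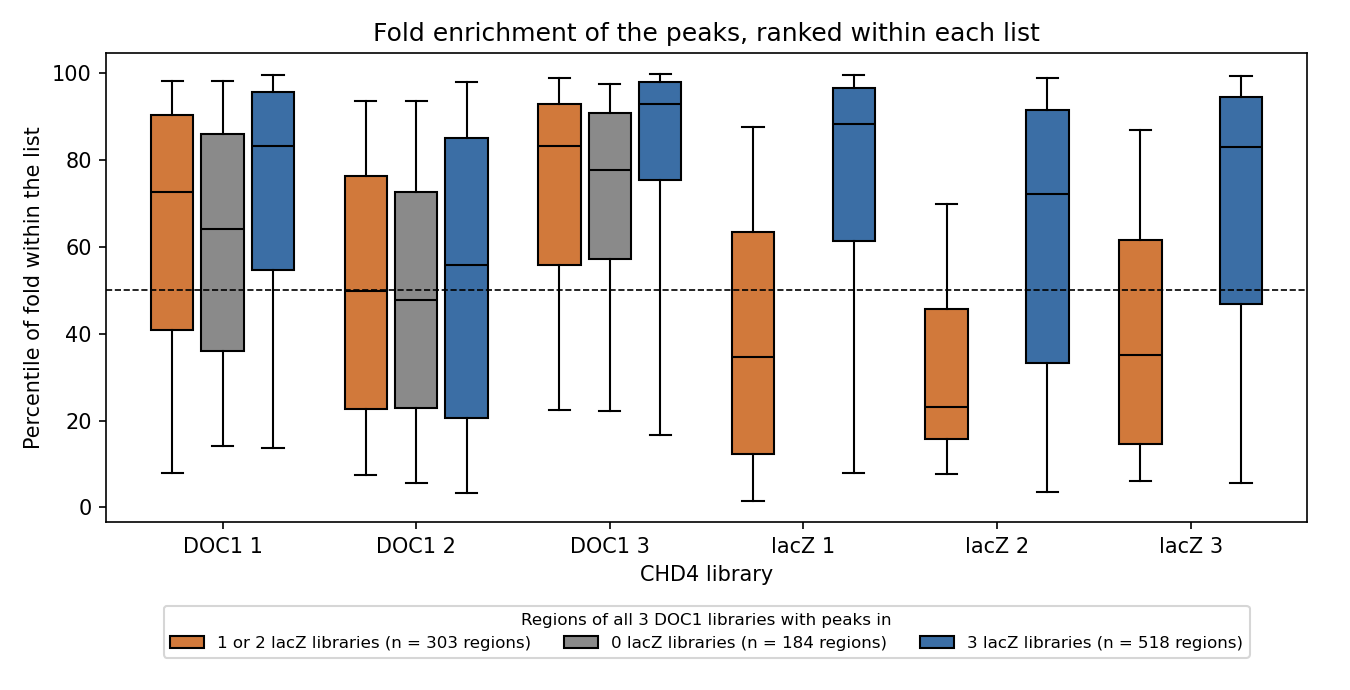
Percentile of fold enrichment within each list (vertical axis) for the 6 CHD4 libraries (horizontal axis), by the number of lacZ libraries with a peak, over the regions of all 3 DOC1 libraries. Boxes span the middle of the regions with the median as a line, whiskers reach the 5th and 95th percentile of the regions, and the dashed line marks the middle of a list. The regions with 1 or 2 lacZ peaks have medians of 72.7, 49.8 and 83.3 in the DOC1 lists, and of 34.7, 23.1 and 35.1 in the lacZ lists.

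Where lacZ did hold a peak, its fold was in the lower part of the list. The 283 peaks in lacZ 1 had folds between 1.86 and 10.7 with a median of 5.15, at the 34.7th percentile. The 42 in lacZ 2 lay between 2.92 and 10.3 with a median of 5.16, at the 23.1st percentile, and the 143 in lacZ 3 between 2.54 and 11.0 with a median of 5.71, at the 35.1st. In regions of all 6 libraries the corresponding percentiles were 88.3, 72.1 and 83.1. The lowest lacZ 1 values were at the 123 regions with no other lacZ library, at the 19.1st percentile, against the 42.2nd at the 160 regions with 1 other.

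Ranked by reads in place of fold, the lacZ 1 and lacZ 3 peaks lay above the middle of their lists, and the lacZ 2 peaks slightly below. The median number of reads at the summit was 18, 17 and 44 in the DOC1 lists, at the 70.5th, 64.6th and 79.0th percentile of reads in those lists. In lacZ 1, lacZ 2 and lacZ 3 it was 45, 26 and 25 reads, at the 69.5th, 47.2nd and 65.8th percentile. Read number and fold thus placed the lacZ 1 and lacZ 3 peaks on opposite sides of the middle of their lists. Ranked by p-value, the lacZ peaks stood at the 53.4th percentile in lacZ 1, the 25.9th in lacZ 2 and the 51.7th in lacZ 3. Both rankings were lower than in regions of all 6 libraries. There the lacZ peaks stood at the 92.6th, 83.5th and 89.0th percentile by reads and at the 92.9th, 82.0th and 88.4th by p-value.

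The difference between the rankings lay in the local background, the caller's estimate of the reads at a summit without enrichment. At these regions its median was 1.70, 2.43 and 5.33 reads in the DOC1 lists, which is 1.07, 1.29 and 1.00 times the median of each list. In lacZ 1, lacZ 2 and lacZ 3 it was 6.31, 3.53 and 3.07 reads, or 1.49, 1.19 and 1.24 times the median of the list. At the 123 regions with lacZ 1 as the single lacZ library, its background was 1.87 times the list median. More than 2 times the list median was seen for 87 of 283 lacZ 1 peaks (30.7%), against 10.5% of all peaks of that list and 21.4% of the lacZ 1 peaks in regions of all 6 libraries. The share was 14.3% in lacZ 2 and 13.3% in lacZ 3, where the lists had 9.32% and 7.52%. In the DOC1 lists it was 12.2%, 14.9% and 8.25%, where the lists had 11.6%, 13.0% and 7.77%. Regions of all 6 libraries had 19.5% and 16.4% in lacZ 2 and lacZ 3, and 19.7%, 27.6% and 15.4% in the DOC1 lists. Only in lacZ 1 was the share thus higher at the patchy regions than at those of all 6 libraries.

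Set against the same region in a DOC1 list, the relative background was higher in lacZ 1 than in DOC1 3 at 242 of 283 regions (85.5%), higher than in DOC1 1 at 232 and higher than in DOC1 2 at 181. It was higher in lacZ 3 than in DOC1 3 at 96 of 143 regions, than in DOC1 1 at 81 and than in DOC1 2 at 61. In lacZ 2, the library most often missing, it was higher than in DOC1 3 at 29 of 42 regions, than in DOC1 1 at 25 and than in DOC1 2 at 15. Of the lacZ lists, lacZ 1 alone thus had the higher ratio at most regions against each of the 3 DOC1 lists. In the opposite arrangement of 1135 regions, the relative background was 1.33, 1.19 and 1.13 in the DOC1 lists, over 750, 44 and 1060 peaks, and 1.03, 1.00 and 1.00 in the lacZ lists. Median ratios above 1 were thus seen in each list of the group with missing peaks. They were also seen in the other group, with 1.07 in DOC1 1 and 1.29 in DOC1 2 at the 303 regions. Regions of all 6 libraries had ratios of 1.26, 1.50 and 1.00 in the DOC1 lists and 1.49, 1.19 and 1.08 in the lacZ lists. In lacZ 1 and lacZ 2 the median ratio was thus the same at regions of all 6 libraries as at the patchy ones. Its part in the missing lacZ peaks was not tested, and the lists give no read number where no peak was called.

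**Figure D3:**
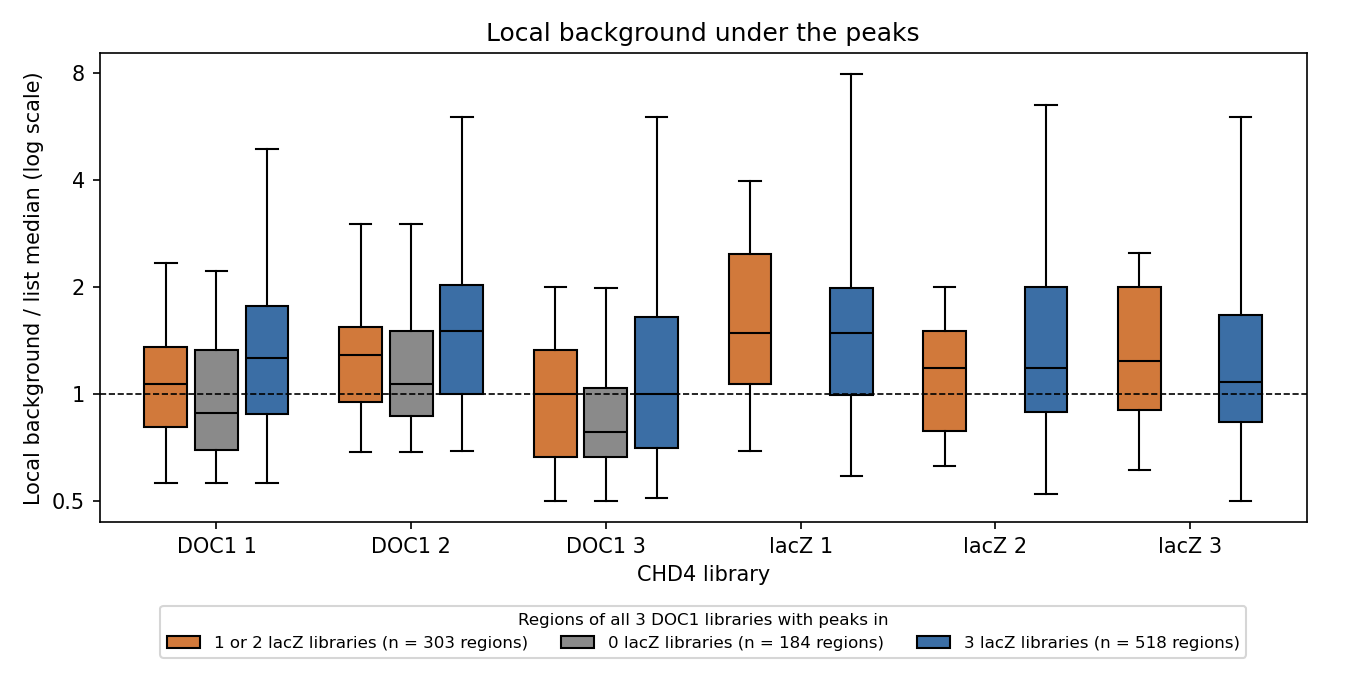
Local background under each peak relative to the median of its list (vertical axis, log scale) for the 6 CHD4 libraries (horizontal axis), by the number of lacZ libraries with a peak, over the regions of all 3 DOC1 libraries. Boxes, lines and whiskers are as in the plot of percentiles, and the dashed line marks the list median. For regions with 1 or 2 lacZ peaks the medians are 1.07, 1.29 and 1.00 in the DOC1 lists, and 1.49, 1.19 and 1.24 in the lacZ lists.

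Missing lacZ libraries were most frequent where the lacZ peak that was seen had a low fold. Among the regions of all 3 DOC1 libraries with a lacZ 1 peak, 120 of the 175 in the lowest 25% of the lacZ 1 list lacked another lacZ library (68.6%). The shares were 51.4% between the 25th and 50th percentile and 50.8% between the 50th and 75th. In the highest 25% of the list, 45 of 395 lacked one (11.4%). In the lacZ 3 list the share was 45.0% in the lowest 25% and 6.56% in the highest, and in the lacZ 2 list 18.7% and 0.787%. Over all regions of the lacZ 1 list, 10.5% of the lowest 25% and 62.2% of the highest were in all 3 lacZ lists. These shares were 25.8% and 71.4% for lacZ 3, and 59.0% and 91.0% for lacZ 2. The order was thus not particular to regions of all 3 DOC1 libraries. The DOC1 lists showed no common order in the share of patchy regions, which there was taken over regions with or without lacZ peaks. From the lowest to the highest 25% of the list, the share of patchy regions was 39.1%, 31.7%, 30.8% and 27.4% in DOC1 1 and 31.2%, 30.6%, 32.1% and 27.5% in DOC1 2. In DOC1 3 it was 24.7% (18 of 73 regions), 45.0% (45 of 100), 34.8% and 27.5%, so the second step was the highest there. The highest 25% of each DOC1 list did have the largest share with all 3 lacZ libraries, at 58.9%, 59.3% and 57.6%. It had the smallest share with no lacZ peak, at 13.7%, 13.2% and 14.9%. Regions with any missing lacZ library were thus least frequent there.

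**Figure D4:**
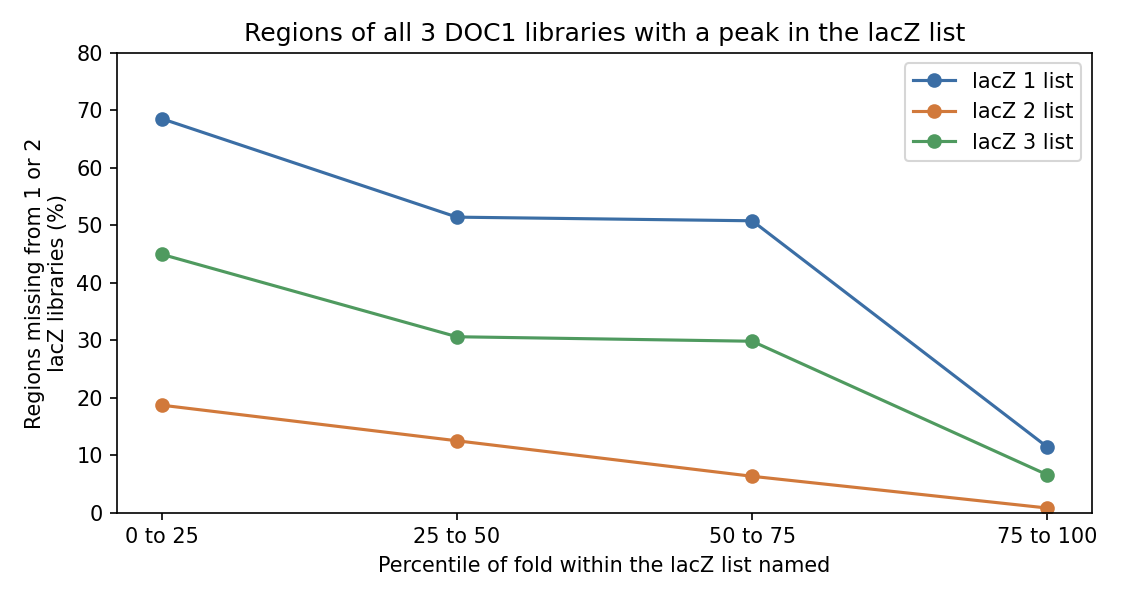
Share of regions that lacked 1 or 2 lacZ libraries (vertical axis, percent) by the fold percentile of the region in the lacZ list named (horizontal axis), among regions of all 3 DOC1 libraries with a peak in that list. The share in the lacZ 1 list is 68.6% at the left and 11.4% at the right.

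The lacZ peaks that were called mostly lay clear of the caller's threshold, and the libraries without a peak have no value to set against it. The weakest called lacZ peak of a region had a median −log10 q-value of 6.11, against 10.9 in regions of all 6 libraries, where the threshold of the lists lay just above 2. In 16 regions (5.28%) it was below 3, and in 3 of the 518 regions of all 6 libraries. The 3 regions nearest to losing a lacZ peak were chr20:49031862-49032709, chr6:44001995-44003283 and chr17:62364852-62365236, with −log10 q-values of 2.04, 2.21 and 2.37. The first also held a stronger lacZ 1 peak and the last a stronger lacZ 3 peak, so only the region on chromosome 6 had no other lacZ peak. The 3 regions of all 6 libraries nearest to losing one were chr8:102486088-102486862, chr17:41116467-41117832 and chr20:39121543-39122819, with values of 2.73, 2.95 and 2.96. On the DOC1 side, the weakest peak of a region had a median −log10 q-value of 5.16, and it was below 3 in 12 regions (3.96%). In regions of all 6 libraries the median was 6.42, and the weakest DOC1 peak was below 3 in a like share, 20 of 518 (3.86%). In regions with no lacZ peak the median was 4.88, with 15 of 184 (8.15%) below 3.

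The 12 regions that ranked best in all 3 DOC1 lists included 7 with peaks in lacZ 1 and lacZ 3, 3 with lacZ 1 alone, 1 with lacZ 1 and lacZ 2 and 1 with lacZ 2 alone. First came a region of 1208 bp on chromosome 11 (66313560 to 66314767). Its folds were 11.4, 8.85 and 14.0 in the DOC1 lists, from 22, 21 and 66 reads at the summit, and 3.75 and 5.96 in lacZ 1 and lacZ 3, from 27 and 43 reads. It stood at or above the 97.9th percentile of each DOC1 list, at the 5.61st of lacZ 1 and at the 41.8th of lacZ 3. A region on chromosome 1 (2165486 to 2166452) had folds of 9.56, 7.31 and 11.2 in the DOC1 lists and of 5.36 and 4.65 in lacZ 1 and lacZ 3. On chromosome 6 (13574795 to 13575787) the folds were 12.3, 8.34 and 9.03 in the DOC1 lists and 4.70 and 6.80 in lacZ 1 and lacZ 3. There the lacZ 1 summit held 67 reads over a background of 12.6, while the DOC1 3 summit held 56 reads over 4.62.

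Not all regions with high DOC1 folds ranked low in lacZ. The 2 regions with lacZ 1 and lacZ 3 that ranked best over all lists that held them lay on chromosomes 4 and 19. On chromosome 4 (7973840 to 7974399) the folds were 10.7, 6.68 and 11.0 in the DOC1 lists and 7.81 and 8.22 in lacZ 1 and lacZ 3, at the 85.5th and 82.9th percentile of those lacZ lists, with no peak in lacZ 2. On chromosome 19 (1041156 to 1042515) the folds were 12.7, 5.65 and 10.5 in the DOC1 lists and 8.74 and 8.82 in lacZ 1 and lacZ 3. The region on chromosome 9 (92003088 to 92003649) reached 12.2, 6.52 and 9.39 in the DOC1 lists and 5.70 and 10.3 in lacZ 1 and lacZ 2, and the lacZ 2 value stood at the 93.3rd percentile of its list. It had no lacZ 3 peak, although the lacZ 3 list is longer than that of lacZ 2.

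The others of the 12 were chr6:157744226-157745185, chr9:131936195-131937403, chr20:60982396-60982855, chr19:19080065-19080619, chr8:103800366-103801889, chr2:112279625-112280390 and chr20:25159530-25160134. At the last of these the fold values were 11.6, 7.60 and 8.27 in the DOC1 lists and 3.54 in lacZ 1, from 27, 22 and 55 reads in the DOC1 lists and 50 in lacZ 1. The background there was 1.41, 2.03 and 5.09 reads in the DOC1 lists and 12.6 in lacZ 1. By fold it stood at the 3.87th percentile of lacZ 1, and the region on chromosome 8 stood at the 2.93rd of lacZ 3.

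Where lacZ 1 was the single lacZ library, the regions that ranked best over all lists that held them lay on chromosome 4 (185817860 to 185818340) and chromosome 1 (71546517 to 71547209). The folds of the first were 8.46, 6.08 and 6.69 in the DOC1 lists and 6.92 in lacZ 1. The folds of the second were 7.06, 6.78 and 8.57 in the DOC1 lists and 6.90 in lacZ 1. With lacZ 1 and lacZ 2, the best were on chromosome 7 (100100726 to 100101304), with 7.06, 5.47 and 6.89 in the DOC1 lists and 6.99 and 5.48 in the lacZ lists, and on chromosome 1 (27438293 to 27438901), with 6.78, 4.84 and 8.77 and then 7.86 and 6.10.

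The 20 regions that lacked lacZ 1, the longest lacZ list, ranked somewhat higher in the lacZ lists that held them than the regions with lacZ 1 did. Their median percentile was 30.4 over 11 peaks in lacZ 2 and 52.7 over 14 peaks in lacZ 3, against 19.2 and 33.3 for the regions with lacZ 1. In the DOC1 lists they stood at the 74.3rd, 52.5th and 69.6th percentile, against the 72.7th, 49.8th and 84.1st. The best with lacZ 2 alone was the region at chr20:60982396-60982855, where fold values were 13.7, 6.52 and 11.2 in the DOC1 lists and 6.29 in lacZ 2, from 25, 14 and 48 reads in the DOC1 lists and 36 in lacZ 2. Next was one on chromosome 6 (34163997 to 34164636), with 9.95, 5.44 and 6.14 in the DOC1 lists and 7.07 in lacZ 2. With lacZ 3 alone, the best were on chromosome 10 (70353842 to 70354713), with 7.93, 5.15 and 6.83 and then 6.97 in lacZ 3, and on chromosome 1 (96836322 to 96836813), with 7.48, 5.77 and 6.52 and then 6.69. With lacZ 2 and lacZ 3 they were on chromosome 1 (78006125 to 78007145) and chromosome 3 (177307658 to 177308139).

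The merged regions were between 375 and 2592 bp long, with a median of 701 bp. Those without a lacZ peak had a median of 562 bp and those of all 6 libraries 826.5 bp, and merging more lists lengthens a region by itself. The single peaks were wider than the list median in DOC1 1 and DOC1 3, and little wider in DOC1 2. Their median width was 378, 294 and 618 bp in the DOC1 lists, where all peaks of the lists had 289, 284 and 396 bp. In lacZ 1, lacZ 2 and lacZ 3 it was 412, 279.5 and 297 bp, where the lists had 398, 318 and 307 bp. Peaks in regions of all 6 libraries were wider in every list, with 444, 342 and 678 bp in the DOC1 lists. In the lacZ lists those peaks had 643.5, 419 and 453.5 bp. The longest region, on chromosome 17 (36858702 to 36861293), was also the one with most peaks, 12 in all. Its folds were 5.81, 5.53 and 10.3 in the DOC1 lists and 7.47 and 6.99 in lacZ 1 and lacZ 3.

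Summits of different libraries lay close together within a region. The median distance was 88 bp between DOC1 1 and DOC1 2, 74 bp between DOC1 1 and DOC1 3 and 80 bp between DOC1 2 and DOC1 3 (303 regions each). Between a DOC1 and a lacZ library it ranged from 56 bp, for DOC1 3 and lacZ 1, to 104 bp, for DOC1 1 and lacZ 3. Between lacZ 1 and lacZ 2 it was 61 bp over 31 regions, between lacZ 1 and lacZ 3 66 bp over 129, and between lacZ 2 and lacZ 3 29 bp over 5. The distances between groups thus overlapped those among DOC1 libraries, and all but that of DOC1 3 and lacZ 1 were longer than those among lacZ libraries. In regions of all 6 libraries the distances were between 38 and 71 bp. Folds of the same regions were ordered more alike within a group than between groups. Spearman's rho was 0.31, 0.42 and 0.38 over 303 regions for the DOC1 pairs. It was 0.54 over 129 regions for lacZ 1 and lacZ 3, and 0.60 over 31 for lacZ 1 and lacZ 2. For the 9 pairings of a DOC1 with a lacZ library it lay between 0.08 and 0.17. The rule that chose the regions treats the groups differently, and no rho was computed for regions of all 6 libraries. These are descriptions across sites. Libraries of a group may share a control, which is not given in the sources used here.

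A missing lacZ peak was seldom replaced by one just outside the region, which held about equally over all regions. Of the 261 regions without lacZ 2, 3 had a lacZ 2 peak within 500 bp and 34 (13.0%) within 5 kb. Of the 160 without lacZ 3, 4 had one within 500 bp and 28 (17.5%) within 5 kb. Over all regions that lacked these libraries, the shares within 5 kb were 8.12% for lacZ 2 and 12.3% for lacZ 3. In the 184 regions with no lacZ peak the shares within 5 kb were 5.43% and 9.78%. A CHD4 region of any library lay within 10 kb of 178 of the 303 regions (58.7%), of 44.0% of those with no lacZ peak, of 63.5% of those of all 6 libraries and of 48.8% of all 18808. The share was 58.5% over the 1005 regions of all 3 DOC1 libraries, close to that of the 303.

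The regions were spread over 22 of the 23 chromosomes compared, with none on chromosome 15. Chromosome 6 held 31 of them (10.2%), chromosome 17 held 30 (9.90%), chromosome 9 held 27 (8.91%) and chromosome 8 held 26 (8.58%). The same chromosomes held 8.08%, 7.15%, 4.76% and 5.81% of all 18808 regions, and 8.16%, 11.4%, 6.97% and 6.47% of the 1005 regions of all 3 DOC1 libraries. Chromosomes 3 and 22 held 3.30% and 0.660% of the regions and 5.71% and 2.40% of all. Regions are not replicates, so no test was made on these shares.

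**Figure D5:**
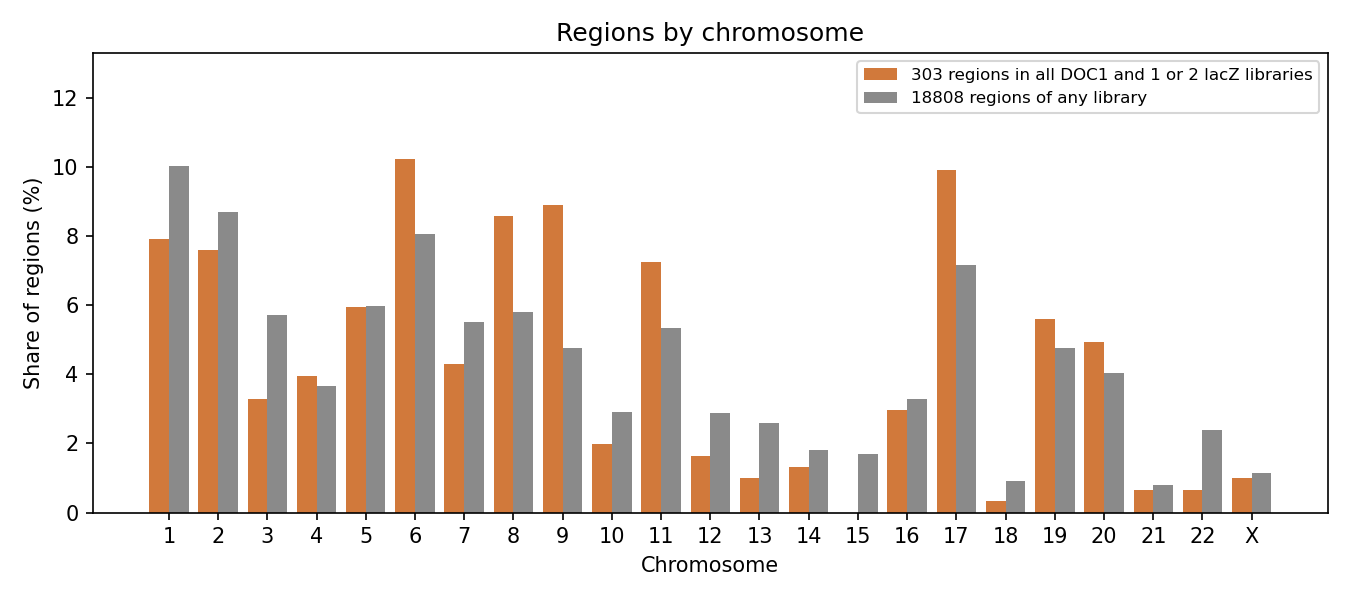
Share of regions on each chromosome (vertical axis, percent; chromosome on the horizontal axis) for the 303 regions of all 3 DOC1 and 1 or 2 lacZ libraries, left bars, and for all 18808 regions, right bars. Chromosome 9 holds 8.91% of the 303 and 4.76% of all regions.

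Some of the regions lay near each other. With a gap of at most 100 kb, 44 of the 303 (14.5%) fell into 19 clusters, 5 of them with 3 or more regions. Such a share grows with the number of regions in a set, so it was not compared with larger sets. The largest had 4 regions between 48760570 and 48923065 on chromosome 20, and a further pair lay between 49031862 and 49048078. The fold of the 4 regions in DOC1 1 ranged from 4.87 to 10.0. They all held a lacZ 1 peak, 3 also a lacZ 3 peak and 1 also a lacZ 2 peak. Clusters of 3 lay on chromosome 6 (26533000 to 26597450), on chromosome 8 (103800366 to 103821033 and 134228642 to 134244078) and on chromosome 9 (35646095 to 35665662).

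The cluster on chromosome 9 stood apart by its background. Its 3 regions had folds between 3.24 and 4.43 in DOC1 1, 2.39 and 2.93 in DOC1 2, 3.11 and 3.79 in DOC1 3, 1.86 and 3.07 in lacZ 1 and 2.54 and 3.05 in lacZ 3. The first of them held 82, 67 and 201 reads at the summit in the DOC1 lists and 175 and 75 in lacZ 1 and lacZ 3, over backgrounds of 17.7, 27.4 and 55.1 reads and of 69.4 and 23.8 reads. In all, 7 of the 303 regions had a background above 3 times the list median in each DOC1 list, and 5 of these lay on chromosome 9, between 34992109 and 35665662. Without these 7, 296 regions remained. The count above 3 times was not made for other regions. Above 2 times the list median, regions of all 6 libraries had larger shares in the DOC1 lists. These were 19.7%, 27.6% and 15.4%, against 12.2%, 14.9% and 8.25% at the 303 regions.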

How the data were processed

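Chromatin immunoprecipitations against CHD4 were analysed for 3 DOC1 and 3 lacZ libraries, whose titles give group and number. The submitters' processing notes name Trimmomatic 0.33, BWA 0.7.12-r1039, SAMtools 1.2 and MACS2 2.1.1.20160309, with hg19 coordinates. Caller settings and the control behind each call were not given in the sources used here. Each library has its own deposited list, so replicates were not pooled. They hold for each peak a deposited fold (a ratio to local background), a deposited −log10 p-value and −log10 q-value, a deposited score made from the q-value, and its start, end and summit. These values belong to their own list.

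Peaks sharing 1 bp or more were joined into regions. The peak with the largest fold stood for a library in a region, and percentiles were taken within each list. Reads and local background at a summit were solved jointly from fold and p-value, taking fold as reads plus 1 over background plus 1 and the p-value as a Poisson tail, with 1 scaling factor per library. A whole read number matched within 0.002 for 100% of the peaks of each list, and the solution was checked on simulated data. Libraries were amplified by PCR for 18 cycles per the labels' protocols, so reads are not independent molecules. No test was made, because the regions were chosen by the same comparison.

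Regions named are the 12 with the best worst rank in the DOC1 lists, the best 2 for each set of lacZ libraries, the 3 nearest the threshold on either side of the rule, and the longest. The regions and rules were chosen with earlier results of these data known. Local background, reads and clusters were examined after the values were seen. The alternatives were a stricter threshold, lists of equal length, other rules of overlap and leaving out each library. Figures used matplotlib 3.10.9 and Poisson tails scipy 1.17.1, with pandas 2.3.3 and numpy 2.4.6 under Python 3.11.15.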

Additional observations from a re-analysis of the deposited data

How the results depend on the processing

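No paired analysis was possible because no result comes from a test, although the libraries of both groups carry the numbers 1 to 3. The 303 regions became 95 in lists of equal length, where lacZ 1 was missing at 35.8% and lacZ 2 at 56.8% of them, and where the median fold percentile was 72.9 in DOC1 3 and 21.8 in lacZ 1. Shortening the lists removes peaks by construction. With reads at the summit ranked in place of fold, a setting added after seeing the data, the median percentile was 64.6 in DOC1 2, 69.5 in lacZ 1, 47.2 in lacZ 2 and 65.8 in lacZ 3. With p-values ranked, also added, it was 53.4 in lacZ 1 and 51.7 in lacZ 3. With 1 library left out, which changes what the rule asks for, the number of regions ranged from 168 without lacZ 2 to 1703 without DOC1 2. The share without lacZ 1 then ranged from 4.18% when lacZ 3 was left out to 14.0% when DOC1 2 was, that without lacZ 2 from 79.5% to 95.8% and that without lacZ 3 from 20.5% when lacZ 1 was left out to 91.7% when lacZ 2 was. The median percentile ranged from 53.8 to 73.3 in DOC1 1, from 59.8 to 84.1 in DOC1 3, from 25.0 to 37.9 in lacZ 1 and from 33.6 to 52.7 in lacZ 3, the last without lacZ 2. Beyond these constructions, the cause was not tested. A −log10 q-value of 3 or more gave 289 regions, summits in place of whole peaks 299, joining within 500 bp 314 and an overlap of 50 bp 301, and these sets held 286, 299, 295 and 301 of the 303, so their shares and percentiles could move little and say nothing of stability between libraries. Sequencing depth was not examined, and a site without a peak may still hold reads.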
